A study of Homo sapiens with 30 samples.

Results

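RNA recovered by proximity labelling at the nuclear lamina of unfixed cells (the native lamina) was compared with RNA of the cytosolic fraction, gene by gene, in HEK293FT, a fast-growing human embryonic kidney cell line that carries the SV40 large T antigen. Of the 30 samples described, 4 enter the comparison, 2 native lamina libraries and 2 cytosolic libraries. The comparison covers every gene with enough counts, which left 16504 of the 27630 gene symbols in the tables. Nuclear fraction libraries (2) and lamina libraries from cells fixed with paraformaldehyde (2) entered the same fit, so that the spread between replicates was estimated over 8 libraries. All of these cells were asynchronous. All of them, the cytosolic controls included, had been transfected by Lipofectamine 2000 with a construct that joins APEX2 to lamin B1. RNA was taken with Trizol and libraries were made after depletion of ribosomal RNA. The labels used here describe no untransfected or unlabelled control, so the fractions are the only background. They also do not say whether the replicates came from separate cultures. The p-values therefore measure the spread between these 8 libraries, the fixed pair included, which may be technical.

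The nuclear lamina is a meshwork of A-type and B-type lamins beneath the inner nuclear membrane, where it anchors silent chromatin and membrane proteins. Lamin B1 is farnesylated, which holds it at that membrane, and its mRNA, like all others, is translated outside the nucleus. APEX2 is an engineered peroxidase that turns a biotin-phenol substrate into a short-lived radical and so tags molecules close to it. The inner nuclear membrane passes at the pores into the outer nuclear membrane, which is continuous with the rough endoplasmic reticulum (ER). Long-lived nuclear RNAs, spliced mRNAs waiting for export, and mRNAs translated at the ER are therefore different populations that a lamina preparation may hold in different amounts than the cytosol. In bulk RNA, a change in the level of one RNA and a change in the amount of all others cannot be told apart.

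Total counts were 8557777 and 5992656 in the native libraries and 7280956 and 5802728 in the cytosolic ones. Values are given as normalised CPM, counts scaled to a common library total with a TMM factor (a correction per library that brings the bulk of genes to the same level), with replicate 1 before replicate 2. A gene was called when the Benjamini-Hochberg adjusted p of edgeR's quasi-likelihood test was under 0.05, and all adjusted p-values below come from that test. Log2 fold changes are native lamina minus cytosol unless another pair is named. All 10 markers of the kidney line were tested. The hemoglobin genes HBG1, HBG2 and HBE1 and the leukocyte genes PTPRC and CD3E had 0 counts in the native and cytosolic libraries. Of the colon markers CDX2 had 229 to 313 counts in the 4 libraries, and the rest had at most 9 there. The feature MIR6087, a 49-base record on chromosome X, took more counts than any other. It had 14813 and 14482 normalised CPM at the native lamina against 132124 and 199078 in the cytosol, a log2 fold change of -3.50 (SE 0.62, adjusted p 0.00722). It was named after its values were seen, and it was left in the totals, which TMM factors are meant to offset.

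LMNB1, the gene of the transfected fusion (hg19, chromosome 5, 126112315 to 126172712), was examined first. It had 76513 and 26168 normalised CPM at the native lamina and 4197 and 6382 in the cytosol. Both native libraries lay above both cytosolic ones, and the native libraries differed widely from each other. The log2 fold change was 3.28 (SE 0.64, adjusted p 0.00902), or 2.302 without native replicate 1. Counts per gene do not separate the construct's transcript from the endogenous one. The other lamin genes did not pass the test. LMNB2 had 282 and 377 against 395 and 446 (log2 fold change -0.35, adjusted p 0.437). LMNA had 53.8 and 72.6 against 80.6 and 60.9 (log2 fold change -0.17, adjusted p 0.721; 0.11 with total counts in place of TMM, 0.05 without cytosolic replicate 1 and 0.03 without native replicate 1), with overlapping groups.

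Over all genes, 1154 were higher at the native lamina (6.99% of those tested) and 1117 were lower (6.77%), together 13.8%. Counts of calls in the lists below are to be read against these shares. Most calls were at least 2-fold, since 1109 of the higher and 1061 of the lower genes had an absolute log2 fold change of at least 1. Changes of at least 2 on that scale were found in 434 of the higher and 145 of the lower genes. Of the higher genes 120 had both cytosolic libraries at or under 3 counts, taken as the floor, while no lower gene had both native libraries there. Exon bases were shared with another gene, whose reads cannot then be told apart, in 324 of the higher and 264 of the lower genes. Of genes named below this holds on the lower side for ATP5E (with the read-through SLMO2-ATP5E), NDUFA1 (RNF113A), ENO1 (ENO1-AS1), PRDX1 (MMACHC), MIF, PCNA, EEF1A1, EEF1G, SLC25A5, BANF1, SSR4, SPCS1, OST4, SRSF9, NUTF2, YARS, ACAT2, NPC2, SNHG6 and ZFAS1. On the higher side it holds for MALAT1, KCNQ1OT1, RPL36A, HSP90B1, KMT2A, MAT2A, PNISR, CELSR3, LAMA5, CORO6, NPEPL1, FSIP2, NKTR, ASH1L, BAZ2B, SREBF1 and SNHG12. Native values lay above both cytosolic values in 35.8% of all genes and below both in 28.4%, so that freedom from overlap alone says little here. Scaling by total counts in place of TMM factors gave 1646 calls higher and 581 lower. It raised the median over all genes by 0.29 on the log2 scale, and upper-quartile factors raised it by 0.12. The share of calls that were higher went from 50.8% to 73.9%, and to 60.5% with upper-quartile factors.

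Leaving out 1 of the 4 libraries, which leaves a single library in one group, cost many calls. Higher and lower calls were 49 and 196 without cytosolic replicate 1, 77 and 84 without cytosolic replicate 2, 536 and 616 without native replicate 1, and 185 and 108 without native replicate 2. Every gene called with all libraries kept its direction in each of these fits, which reuse the counts that gave the calls. Of the 163 called genes that the naming rule selected (given with the methods), 18 were called whichever of the 4 libraries was left out. These were SEC31B, CORO6 and GOLGA2P5 on the higher side, and MT1X, MT2A, ATP5E, ATP5EP2, NDUFA1, RPL39, RPS21, PRDX1, FTL, MIF, MIF-AS1, COMMD6, TAPT1-AS1, SNORA53 and SNORD133 on the lower side. Every other called gene that the rule selected lost its call in at least 1 of these fits.

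**Figure D1:**
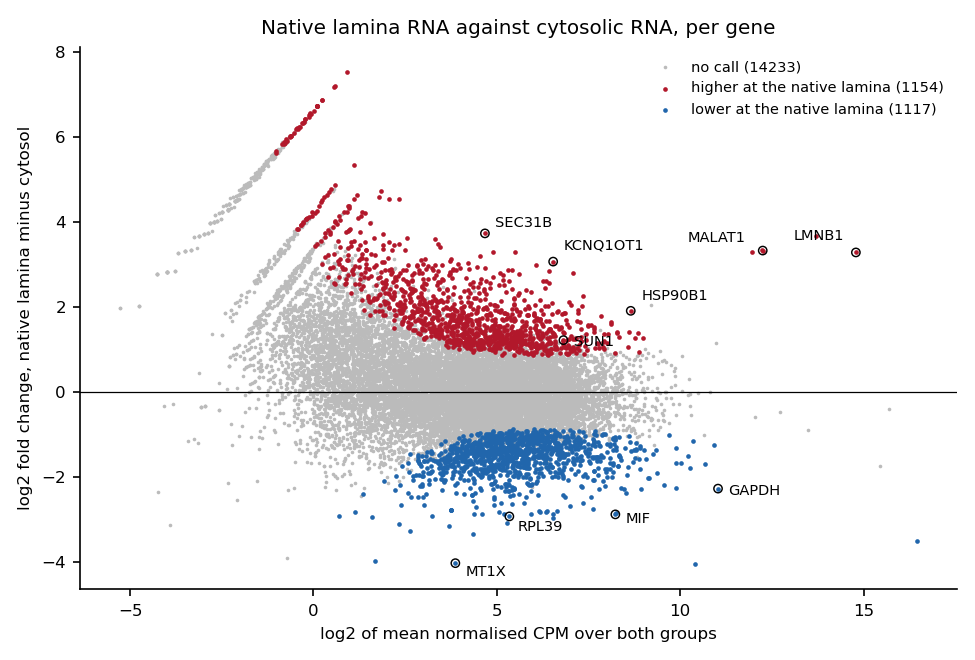
Each point is a gene, placed by the log2 of its mean normalised CPM over the native and cytosolic libraries (horizontal) and by its log2 fold change, native lamina minus cytosol (vertical). Red points are the 1154 genes called higher, blue points the 1117 called lower and grey points those not called; 2 genes with no count in the 4 libraries are not drawn. The diagonal streaks at low CPM are genes with 0 or few cytosolic counts, whose fitted values depend on the prior count.

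Long RNAs that stay in the nucleus come first. MALAT1, a nuclear speckle RNA (chromosome 11), had 5456 and 12246 normalised CPM at the native lamina against 795 and 974 in the cytosol. The log2 fold change of MALAT1 was 3.32 (SE 0.69, adjusted p 0.0109), or 2.62 with an adjusted p of 0.0551 without native replicate 2. It shares exon bases with its antisense record TALAM1, and strand was ignored in counting, so the records cannot be told apart. KCNQ1OT1, the antisense RNA that silences an imprinted cluster in cis, had 138 and 194 against 18.7 and 20.9. Its log2 fold change was 3.06 (SE 0.90, adjusted p 0.0399). It shares exon bases with KCNQ1. PVT1, a long RNA next to MYC, was the third call of this list, at 1.26 (SE 0.39, adjusted p 0.0481). NEAT1, the scaffold of paraspeckles, had 749.8 and 1129.6 against 156 and 301 without reaching the threshold (log2 fold change 2.04, adjusted p 0.0704).

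As a list, nuclear body and chromatin-bound long RNAs had 3 higher and 0 lower calls among 9 tested, with a median log2 fold change of 1.47. Over all genes tested the median was 0.10. Without cytosolic replicate 1, cytosolic replicate 2 and native replicate 2 no member was called, and without native replicate 1 there was 1. Intergenic long RNAs (LINC symbols) had 16 higher and 2 lower calls of 209. The share called higher, 7.66%, was near the 6.99% of all genes, and 0.957% were called lower against 6.77%. Their median was 0.92. In 51 of them both cytosolic libraries were at the floor, and with the bound used for these the median was 0.58. LINC01004 had 15.6 and 22.7 against 1.07 and 2.54 (log2 fold change 3.48, SE 0.67, adjusted p 0.00854; 4.13 without cytosolic replicate 2). LINC00472 had 17.2 and 24.6 against 3.88 and 3.81. On the lower side LINC02381 had 18.5 and 14.3 against 34.6 and 48.4. The other lower call, LINC00998, had 2.91 and 3.39 against 16.2 and 8.46. Its RefSeq match is a protein-coding gene, although it was listed by its LINC symbol. Intergenic calls higher numbered 0, 0, 9 and 2 without cytosolic replicate 1, cytosolic replicate 2, native replicate 1 and native replicate 2.

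Antisense long RNAs (AS symbols) had 37 higher and 8 lower calls of 582, or 6.36% and 1.37%, so the share called higher was near the 6.99% of all genes. Their median was 0.62 (0.50 with the bound used for genes at the floor). Among the most abundant were THAP9-AS1, with 39 and 49.95 against 13.1 and 20.3, and TTN-AS1, with 39.4 and 37.7 against 19.8 and 15. MIF-AS1 and LRRC75A-AS1 were lower, but both share exon bases with another gene, as do THAP9-AS1 and TTN-AS1. TAPT1-AS1, which shares none, had 10.7 and 7.07 against 41.2 and 61.3 (log2 fold change -2.51, SE 0.35, adjusted p 0.00427). Higher calls in this list numbered 3, 0, 12 and 3 when the libraries were left out in the order used above, and lower calls 2 in each case.

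Small nucleolar RNAs guide chemical modification of ribosomal RNA, with box C/D members guiding methylation and box H/ACA members pseudouridylation. Box C/D RNAs had 15 higher and 4 lower calls of 128 (11.7% and 3.12%, against 6.99% and 6.77% of all genes). Their median log2 fold change was 1.33, or 1.18 when the bound was used for the 28 members at the floor in both cytosolic libraries. SNORD76 had 9.67 and 10.2 against 1.20 and 2.11 (log2 fold change 2.61, SE 0.62, adjusted p 0.0180). SNORD29 had 9.04 and 11.5 against 0.936 and 1.06 (3.35, SE 0.77, adjusted p 0.0159). These levels rest on few counts. SNORD133 went the other way, with 11.3 and 30.9 against 141 and 188 (log2 fold change -2.97, SE 0.42, adjusted p 0.00427; -3.86 without native replicate 2). SNORD141A and SNORD141B were also called lower, but their records share bases with EEF1A1, whose mRNA was lower as well. Without the libraries in the order above, higher calls in this list were 0, 0, 7 and 0.

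Box H/ACA RNAs had 3 higher and 4 lower calls of 107, with a median of 0.37 (-0.20 without native replicate 1). Their shares called, 2.8% higher and 3.74% lower, were both under the 6.99% and 6.77% of all genes. SNORA53 had 19.6 and 15.9 against 71.0 and 68.5 in the cytosol and 122.8 and 122.2 in the nuclear fraction. It was lower than both fractions, by a log2 fold change of -1.97 against the cytosol (SE 0.27, adjusted p 0.00427) and of -2.78 against the nuclear fraction (adjusted p 6.46e-04). SNORA23 had 15.6 and 8.84 against 47.1 and 35.9. SNORA63B was at least 10.6-fold higher, with both cytosolic libraries at or under the floor. Cajal body RNAs, which guide modification of spliceosomal RNAs, had 3 higher calls (SCARNA2, SCARNA5, SCARNA9) and 1 lower (SCARNA23) of 23 (13.0% and 4.35%). SCARNA2 had 310.1 and 283 against 116 and 97.9 (log2 fold change 1.47, SE 0.44, adjusted p 0.0417). Only without native replicate 2 was any of the Cajal body RNAs called when 1 of the 4 libraries was left out, and then 1. The spliced host transcripts of small nucleolar RNAs were split, with 2 higher (SNHG12, SNHG17) and 5 lower (DANCR, EPB41L4A-AS1, SNHG5, SNHG6, ZFAS1) of 25. Their median was 0.23, and -0.19 without cytosolic replicate 1. RN7SL3, a record of the RNA of the signal recognition particle, had the lowest log2 fold change of all genes tested, -4.06 (SE 0.51, adjusted p 0.00427), with 221 and 85.0 against 2101 and 3002. It was named after its values were seen.

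**Figure D2:**
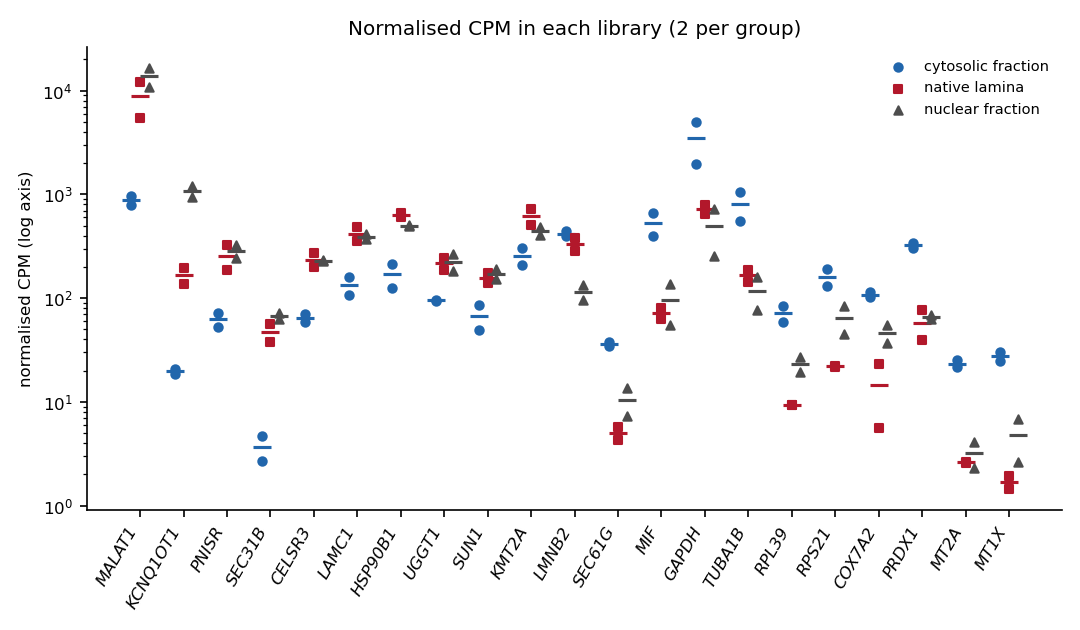
Normalised CPM (log axis) of 21 genes in each cytosolic (blue circles), native lamina (red squares) and nuclear (grey triangles) library; short bars are means of 2 libraries. Both red squares lie above both blue circles from MALAT1 to KMT2A and below them from LMNB2 to MT1X, and for KCNQ1OT1 both grey triangles lie far above both red squares.

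Some mRNAs are known to be spliced slowly and held in the nucleus with introns. Of 20 genes in a list of CLK kinases and nuclear-detained mRNAs, 8 were higher and 0 lower, with a median of 1.02. CCNL2, a cyclin of splicing kinases, had 207 and 262 against 31.6 and 36.4 (log2 fold change 2.79, SE 0.43, adjusted p 0.00503). PNISR, a serine- and arginine-rich protein of speckles, had 187 and 324 against 53.2 and 72.5 (2.02, SE 0.34, adjusted p 0.00620). OGT, which attaches N-acetylglucosamine to nuclear and cytosolic proteins, had 469.9 and 431 against 177 and 163 (1.41, SE 0.40, adjusted p 0.0345). MAT2A, which makes S-adenosylmethionine, had 264 and 322 against 117 and 147 (1.16, SE 0.30, adjusted p 0.0242). Native and cytosolic libraries did not overlap for these 4 genes, but 35.8% of all genes also lay above without overlap. CCNL1, LUC7L3, NKTR and MDM4 completed the calls. Leaving out the libraries in the order above gave 1, 4, 6 and 2 calls.

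The SR splicing factors had calls in both directions, 5.56% higher and 11.1% lower against 6.99% and 6.77% of all genes. SRSF11 was higher, with 196 and 271 against 115 and 121 (log2 fold change 0.98, SE 0.28, adjusted p 0.0346). SRSF3 and SRSF9 were lower, SRSF3 with 172 and 161 against 337 and 326 (-1.0, SE 0.28, adjusted p 0.0356). The other 15 of 18 were not called, and the list median was 0.69 (0.43 without cytosolic replicate 1). No SR gene was called lower in any fit without 1 of the 4 libraries, and 1 was called higher, without native replicate 1. With total counts in place of TMM 8 were higher and 0 lower. Genes of the small spliceosome proteins (Sm, LSm and U2 factors) had 0 higher and 14 lower of 29 and a median of -1.12. SNRPB, the Sm protein B, had 152 and 88.0 against 324 and 352 (log2 fold change -1.49, SE 0.33, adjusted p 0.0136). SNRPD2 had 63.6 and 43.6 against 134 and 209. Lower calls in this list were 4, 0, 8 and 3 without each library in turn.

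Chromatin remodelling ATPase and trithorax-type genes had 7 higher (18.4%) and 0 lower of 38, with a median of 0.55. They are long, with a median of 8777 exonic bases. Among all protein-coding genes of 8000 exonic bases or more, 15.7% were higher and the median was 0.53. KMT2A, a histone H3 lysine methyltransferase, had 512 and 720.2 against 208 and 302 (log2 fold change 1.27, SE 0.34, adjusted p 0.0274). KMT2C, a related methyltransferase, had 410.5 and 504 against 192 and 184 (1.28, SE 0.35, adjusted p 0.0290), and CHD2, a remodeller, 223 and 369 against 124 and 146 (1.14, SE 0.33, adjusted p 0.0370). ATRX, CHD6, ASH1L and BAZ2B were also called. Without native replicate 1 there were 3 calls in this list, and without any other single library 0. Zinc finger genes (ZNF symbols) had 41 higher and 3 lower calls of 476 (8.61% and 0.630%) and a median of 0.35. ZNF621 had 92.7 and 104 against 41.4 and 33.6 (1.39, SE 0.30, adjusted p 0.0134), and ZNF514 86.8 and 111 against 40.5 and 31.7 (1.45, SE 0.29, adjusted p 0.00988). The 3 lower ones were ZNF358, ZNF330 and ZNF385A. Higher calls of zinc finger genes numbered 2, 0, 15 and 5 in the leave-out fits. Genes for H3K9 methylation and HP1, the machinery of silent chromatin, had no call in either direction among 30. Their median of 0.12 was -0.07 without cytosolic replicate 2 and about 0 without native replicate 1. Under total counts, upper-quartile factors and each fit without 1 library the count of calls was also 0.

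The naming rule for size of change picked genes of modest level. SEC31B, a relative of the coat protein of ER export vesicles (chromosome 10), had 37.8 and 57.0 against 2.67 and 4.65. Its log2 fold change was 3.73 (SE 0.53, adjusted p 0.00427). CORO6, an actin-binding coronin whose record shares exon bases with ANKRD13B, had 16.7 and 23.6 against 1.87 and 1.90 (3.40, SE 0.53, adjusted p 0.00503), and the transcribed pseudogene GOLGA2P5 had 16.2 and 20.3 against 1.34 and 1.69 (3.60, SE 0.54, adjusted p 0.00503). In all 3 both native libraries were far above both cytosolic ones. FAM20A, a secretory pathway pseudokinase, had 8.42 and 10.9 against 0.669 and 0 (4.53, adjusted p 0.0180; 3.80 without cytosolic replicate 2 and 8.84 without cytosolic replicate 1, where the prior count sets the value). NPEPL1, PLAC4, TRIM17, FSIP2 and SCART1 were also selected, with cytosolic values of at most 1.20 normalised CPM. FSIP2 had a log2 fold change of 3.61 and, without cytosolic replicate 1, of 4.62. SCART1 had 3.45, or 2.67 without cytosolic replicate 2 and 8.37 without cytosolic replicate 1, its only cytosolic counts. LOC644285 was at least 12.7-fold higher, with both cytosolic libraries at or under the floor.

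Genes of large secreted and membrane proteins, translated at the ER, were taken next. Of 95 cadherin, protocadherin, integrin and laminin genes, 27 were higher and 0 lower (28.4% against 6.99% of all genes), with a median of 0.80. Laminins, the heterotrimers of the basement membrane that share only a name root with lamins, had 7 higher of 10 and a median of 1.59. LAMC1 had 355 and 481 against 107 and 160.1 (log2 fold change 1.65, SE 0.32, adjusted p 0.00873). LAMA3 had 127 and 172 against 16.8 and 25.4 (2.83, SE 0.46, adjusted p 0.00601) and LAMA5 144 and 147 against 25.1 and 43.6 (2.09, SE 0.52, adjusted p 0.0209). Native and cytosolic libraries did not overlap in any of these, but 35.8% of all genes also lay above without overlap. LAMB3 had the lowest value of the laminins, -0.85, and was not called. Laminin calls were 0, 2, 6 and 1 without each library in the order above.

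Integrins, the receptors that bind laminins and other matrix proteins, had 8 higher and 0 lower of 21 and a median of 1.42. ITGAV had 71.0 and 82.5 against 30.6 and 22.8 (log2 fold change 1.52, SE 0.32, adjusted p 0.0117), and ITGA6 76.0 and 72.2 against 20.6 and 35.7 (1.40, SE 0.31, adjusted p 0.0132). All 8 calls were of alpha subunits. Cadherins, FAT and CELSR genes had 6 higher of 17. FAT1, a giant atypical cadherin, had 761 and 676 against 301 and 292 (1.28, SE 0.33, adjusted p 0.0236), and CELSR3 198 and 271 against 70.5 and 58.8 (1.86, SE 0.49, adjusted p 0.0273). Protocadherins had 6 higher of 47, but a median of 0.10 that was 1.04 without cytosolic replicate 1 and -0.17 without cytosolic replicate 2. Over the whole list of 95, higher calls were 0, 4, 15 and 6 without each library in the order above.

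Solute carriers were taken in 2 sets by the membrane they serve. The 42 mitochondrial carriers (SLC25) had 2 higher and 7 lower calls and a median of -0.55. The other 226 carriers, most of which reach the cell surface or endomembranes through the ER, had 25 higher and 1 lower (SLC50A1) and a median of 0.57. SLC38A2, an amino acid transporter, had 261 and 319 against 86.0 and 132 (log2 fold change 1.42, SE 0.31, adjusted p 0.0141). SLC25A3, the mitochondrial phosphate carrier, had 119 and 74.3 against 281 and 387 (-1.79, SE 0.35, adjusted p 0.00925), and SLC25A5, an adenine nucleotide carrier, 164 and 93.6 against 326 and 498 (-1.67, SE 0.40, adjusted p 0.0192). Mitochondrial carriers lay below and the others above zero in every fit that left out 1 library, with medians of -0.72 to -0.32 and of 0.50 to 0.70. Of the other carriers 1, 1, 7 and 3 were called higher in those fits, and of the mitochondrial ones 1, 0, 3 and 0 lower.

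Genes of the ER itself had calls in both directions. HSP90B1, the ER member of the HSP90 chaperones (chromosome 12), had 609 and 660.1 against 126 and 213. Its log2 fold change was 1.91 (SE 0.36, adjusted p 0.00835), and the nuclear fraction held 493 and 508. KTN1, a kinesin-binding protein of the ER, had 135 and 184 against 58.7 and 52.7 (1.52, SE 0.36, adjusted p 0.0174). UGGT1, the folding sensor of glycoproteins, had 245 and 188 against 96.4 and 93.7 (1.19, SE 0.29, adjusted p 0.0209). RRBP1, the ribosome-binding protein, was the fourth call higher, at 1.46 (adjusted p 0.0182). SEC61G, a small subunit of the translocon, was at the other end, with 4.26 and 5.75 against 38 and 34.7 (-2.87, SE 0.59, adjusted p 0.0108). SEC61B, SSR2, SSR4, SRP9, SPCS1, DAD1, OST4 and OSTC, which serve translocation, signal removal or glycosylation, were also lower. The list of 58 thus held 4 higher and 9 lower (6.9% and 15.5%), with a median of -0.03 that was 0.28 with total counts. The share called higher was near the 6.99% of all genes, and 6.77% of all genes were lower. Leave-out fits gave 0, 1, 3 and 1 higher and 3, 0, 8 and 1 lower. Genes of cholesterol synthesis and uptake had 1 higher, the regulator SREBF1, and 2 lower of 29 (3.45% and 6.9%). The lower ones were ACAT2, a cytosolic thiolase, and NPC2, a soluble lysosomal protein that carries cholesterol. Their median of -0.37 was -0.87 without cytosolic replicate 1 and 0.55 without cytosolic replicate 2.

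For the nuclear envelope, genes of inner nuclear membrane proteins and of the complex that links nucleus and cytoskeleton had 7 higher and 1 lower of 29, and a median of 0.66. SUN1, the inner membrane partner in that link, had 139.7 and 175 against 49.2 and 86.5 (log2 fold change 1.22, SE 0.34, adjusted p 0.0323). NEMP1, an inner nuclear membrane protein, had 239 and 222 against 86.4 and 79.9 (1.47, SE 0.28, adjusted p 0.00835). ANKLE2, which helps the envelope reform after mitosis, had 191 and 180.2 against 85.8 and 111 (0.92, SE 0.28, adjusted p 0.0466). LEMD2, LEMD3, SUN2 and SYNE3 were also higher. BANF1, a small DNA-binding protein that is soluble and binds LEM-domain proteins, was lower, with 28.0 and 19.6 against 69.3 and 68.3 (-1.53, SE 0.38, adjusted p 0.0220). In the nuclear fraction SUN1 had 153 and 191 and NEMP1 166 and 209, and neither differed from the native lamina beyond the threshold (adjusted p 0.832 and 0.498). Higher calls were 0, 0, 3 and 1 in the leave-out fits.

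Nuclear pore genes had 1 higher (NUP210L) and 3 lower (SEC13, AAAS, NUP37) of 36. These shares, 2.78% and 8.33%, stand beside 6.99% and 6.77% of all genes. The median of the pore genes was -0.21. It turned to 0.09 with total counts and to 0.04 without native replicate 2, and was -0.34 without native replicate 1 and -0.09 without cytosolic replicate 2. NUP210L had 2.29 and 6.19 against 0.802 and 0.423 (log2 fold change 2.66, adjusted p 0.0379; 1.80 without native replicate 2). Nuclear transport receptors had 0 higher and 3 lower of 31. These were RAN, the GTPase that drives transport, its import factor NUTF2, and the importin KPNA2. RAN had 159 and 117 against 366 and 444 (-1.55, SE 0.35, adjusted p 0.0151). Without native replicate 1 the pore genes had 1 higher and 2 lower calls and the transport receptors 1 lower, and without any other single library 0.

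On the lower side, subunits of the ribosome and the respiratory chain held many of the calls. Cytosolic ribosomal protein genes had 62 lower and 1 higher of 84, and a median log2 fold change of -1.65. This median ran from -2.05 to -1.16 over the 4 pairings of a native with a cytosolic library. RPL39, a protein of the large subunit, had 9.36 and 9.43 against 59.0 and 84.4 (log2 fold change -2.93, SE 0.41, adjusted p 0.00427). RPS21 had 22.1 and 21.8 against 131 and 192 (-2.88, SE 0.39, adjusted p 0.00427), and RPS4X, encoded on the X chromosome, 389 and 268 against 1299 and 1827 (-2.25, SE 0.37, adjusted p 0.00593). In each the 2 groups were well apart. RPS3 had 278 and 165 against 717 and 1094. Large subunit genes had 36 lower of 51 and small subunit genes 25 of 32. The one gene called higher was RPL36A, with 30.5 and 36.2 against 6.95 and 14.4 (1.67, SE 0.44, adjusted p 0.0270). It shares exon bases with the read-through gene RPL36A-HNRNPH2. Lower calls were 37 without cytosolic replicate 1, 8 without cytosolic replicate 2, 46 without native replicate 1 and 13 without native replicate 2.

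Ribosomal protein mRNAs are known for a start in cytidine followed by a run of pyrimidines, the 5′ terminal oligopyrimidine motif, through which growth signals set their translation. The start sites below show it for genes of the group and its neighbours (RefSeq, build GRCh38.p14), with 30 bases before the annotated start and 15 from it on. Capitals mark the unbroken run of C and T that begins at the start, as far as the 15 bases shown reach.
RPL39: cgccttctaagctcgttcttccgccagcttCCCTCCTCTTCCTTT
RPS21: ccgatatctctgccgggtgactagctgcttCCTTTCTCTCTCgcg
RPS3: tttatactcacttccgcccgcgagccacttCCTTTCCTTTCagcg
RPL36A: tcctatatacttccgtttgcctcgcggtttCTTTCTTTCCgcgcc
EEF1A1: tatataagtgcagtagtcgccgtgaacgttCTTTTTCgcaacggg
RACK1: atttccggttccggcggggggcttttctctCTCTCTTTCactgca
RPS4X: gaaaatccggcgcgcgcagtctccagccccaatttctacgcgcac
GAPDH: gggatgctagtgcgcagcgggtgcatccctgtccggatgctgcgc
The run fills all 15 bases shown in RPL39, so its length is at least 15. It is 12 bases in RPS21, 11 in RPS3, 7 in EEF1A1 and 9 in RACK1, and the annotated starts of RPS4X and GAPDH have none. RPL36A, the one ribosomal protein gene called higher, has a run of 10. The start sites lie at chromosome X, 119791616 to 119791660 for RPL39, and chromosome 20, 62387073 to 62387117 for RPS21.

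A start of C followed by 4 bases that are each C or T, read on the gene's strand only, was found in 44 of the 67 ribosomal protein genes with an entry (65.7%). It was found in 4.04% of all 27303 promoters and in 21.6% of the 51 translation factor genes with an entry. Among protein-coding genes called lower it stood in 11.8%, or 8.35% with ribosomal protein genes left out. Among those called higher it stood in 4.67%, and among those not called in 4.63%. Within the ribosomal protein genes, the 44 with it had 36 lower calls and a median of -1.74, and the 23 without it had 14 lower calls and a median of -1.43. A match of letters at an annotated start is a description and does not show where transcription began in these cells.

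Translation initiation and elongation factors had 13 lower and 0 higher of 63, with a median of -0.60. EEF1A1, which brings tRNAs to the ribosome, had 252 and 292 against 614 and 998 (log2 fold change -1.57, SE 0.33, adjusted p 0.0123). EEF1G had 238 and 172 against 474 and 809 (-1.65, SE 0.39, adjusted p 0.0181), and EIF3L 145 and 94.6 against 199.9 and 383 (-1.28, SE 0.37, adjusted p 0.0384). RACK1, a scaffold on the small subunit, had 517 and 472 against 1271 and 1880.5 (-1.67, SE 0.37, adjusted p 0.0136). EIF3 subunits made up 6 of the 13. Cytosolic aminoacyl-tRNA synthetases had 3 lower of 20 (YARS, GARS, KARS) and a median of -0.64. Lower calls of translation factors were 4, 1, 10 and 0 and those of synthetases 0, 1, 2 and 0 in the leave-out fits.

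Subunits of oxidative phosphorylation, the respiratory chain and ATP synthase of mitochondria, had 64 lower and 0 higher of 82. Their median was -1.53, with -1.98 to -1.16 over the 4 pairings. By complex, lower calls were 30 of 37 in complex I, 1 of 4 in complex II, 8 of 9 in complex III, 10 of 12 in complex IV and 15 of 20 in ATP synthase, a set that includes the pseudogene ATP5EP2. COX7A2, a small subunit of complex IV, had 23.3 and 5.60 against 102 and 114 (log2 fold change -2.88, SE 0.60, adjusted p 0.0114). The native libraries differed here, and the value was -4.27 without native replicate 1 and -2.21 without native replicate 2. NDUFA1, of complex I, had 12.2 and 5.30 against 65.4 and 63.4 (-2.86, SE 0.44, adjusted p 0.00503; -3.60 without native replicate 1). ATP5E had 10.6 and 5.75 against 63.8 and 75.9 (-3.07, SE 0.35, adjusted p 0.00427). ATP5B, the catalytic beta subunit and a longer mRNA, had 423 and 233 against 937 and 857 (-1.45, SE 0.38, adjusted p 0.0254). Between the native libraries the median of the list differed by 0.66, replicate 1 being higher. Lower calls were 21 without cytosolic replicate 1, 13 without cytosolic replicate 2, 59 without native replicate 1 and 14 without native replicate 2.

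**Figure D3:**
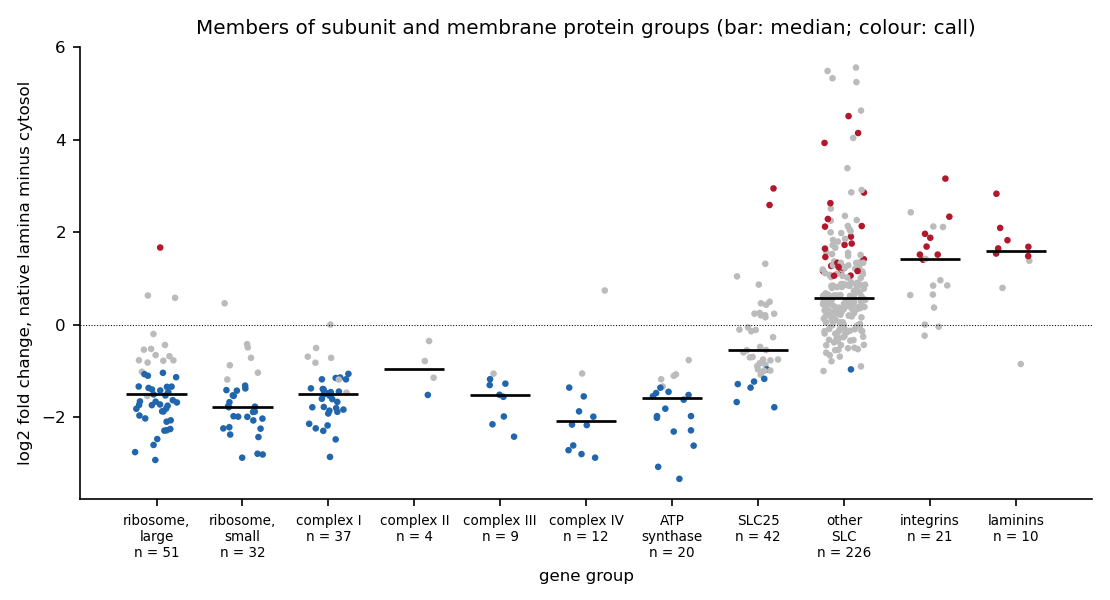
Log2 fold change (native lamina minus cytosol) of each tested member of 11 gene groups; bars are medians, red and blue points are genes called higher and lower, grey points were not called. The ribosomal and respiratory groups lie below zero apart from a few members, the SLC25 carriers straddle zero, and laminins and integrins lie mostly above it.

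Mitochondrial ribosomal protein genes, which encode small proteins imported from the cytosol, had 29 lower and 0 higher of 78, with a median of -1.03. MRPL42 had 40.5 and 45.1 against 84.1 and 101 (log2 fold change -1.12, SE 0.29, adjusted p 0.0245), and MRPL10 45.8 and 32.7 against 77.9 and 100 (-1.18, SE 0.32, adjusted p 0.0312). Proteasome subunits had 15 lower and 0 higher of 36 and a median of -1.02. PSMB1, of the core particle, had 64.8 and 37.9 against 149 and 158 (-1.58, SE 0.39, adjusted p 0.0212). All but 2 of these calls were core particle genes (PSMA and PSMB symbols), the others being PSMC2 and PSMD10. Ubiquitin-conjugating enzymes had 11 lower and 0 higher of 32 and a median of -0.93, among them UBE2D2 with 65.6 and 55.4 against 123 and 133. Lower calls in the leave-out fits were 1, 1, 20 and 1 for mitochondrial ribosomal proteins, 1, 1, 14 and 1 for the proteasome and 1, 0, 2 and 1 for the conjugating enzymes.

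Enzymes of glycolysis and genes of the response to low oxygen had 14 lower and 0 higher of 37, with a median of -0.97. GAPDH had 651 and 783 against 1972 and 4959.6 (log2 fold change -2.27, SE 0.55, adjusted p 0.0185). The cytosolic libraries differed from each other by more than the native ones, and without cytosolic replicate 2 the value was -1.47 (adjusted p 0.168). ENO1, enolase, had 758 and 776 against 1965 and 3009 (-1.70, SE 0.40, adjusted p 0.0167), and PKM, pyruvate kinase, 788 and 817 against 1611 and 1977 (-1.16, SE 0.34, adjusted p 0.0377). MIF, a small cytokine with enzyme activity, had 81.2 and 62.5 against 395 and 663 (-2.88, SE 0.45, adjusted p 0.00503) and shares exon bases with MIF-AS1. ALDOA, aldolase, had 446 and 672 against 1350.2 and 2486 (-1.78, SE 0.42, adjusted p 0.0180). Lower calls in this list were 6, 1, 5 and 4 without each library.

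Genes of the defence against oxidants had 11 lower and 0 higher of 31 and a median of -0.83. All 6 peroxiredoxins (PRDX1 to PRDX6) were among the calls, together with thioredoxin, SOD1, GPX1, GPX4 and the ferritin light chain. PRDX1 had 77.0 and 39.5 against 342 and 305 (log2 fold change -2.47, SE 0.41, adjusted p 0.00620). FTL had 73.6 and 76.9 against 369 and 358 (-2.27, SE 0.33, adjusted p 0.00427), and SOD1 80.0 and 62.0 against 206 and 264 (-1.73, SE 0.32, adjusted p 0.00787). Native libraries lay below cytosolic ones by a wide margin in all 3. Heat shock and chaperone genes had 9 lower and 0 higher of 32 (median -0.90), 4 of them subunits of the chaperonin CCT. HSPA8, the constitutive HSP70, had 474 and 624 against 1174 and 1033 (-1.01, SE 0.31, adjusted p 0.0447). Leave-out fits gave 5, 3, 10 and 3 lower calls among oxidant defence genes and 0, 1, 3 and 1 among heat shock genes.

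Metallothioneins are small cysteine-rich proteins that bind zinc and copper. MT1X, with the lowest log2 fold change of the genes picked for size of change, had 1.46 and 1.92 normalised CPM at the native lamina against 24.6 and 30.4 in the cytosol, or 14 and 13 counts against 184 and 144. Its log2 fold change was -4.03 (SE 0.57, adjusted p 0.00427). MT2A had 2.60 and 2.65 against 25.3 and 21.6 (-3.15, SE 0.48, adjusted p 0.00503). Both were called whichever of the 4 libraries was left out. MT1F, with 0.520 and 0.589 against 2.27 and 1.48, did not reach the threshold (-1.75, adjusted p 0.246). The other metallothionein genes had 0 or 1 count in each native, cytosolic and nuclear library and were not tested. MTF1, the zinc-sensing activator of these genes, had 52.6 and 61.3 against 29.8 and 44.2 (0.63, adjusted p 0.155).

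The regions before the starts of the 2 called metallothionein genes are shown because they share the elements through which metals induce them (RefSeq, build GRCh38.p14, plus strand, 250 bases ending at the base before the start). Capitals mark the 7-base cores TGCACNC and TGCGCNC of the metal response element, on either strand. MT2A lies at chr16:56608334-56608583 and MT1X at chr16:56682220-56682469.
MT2A: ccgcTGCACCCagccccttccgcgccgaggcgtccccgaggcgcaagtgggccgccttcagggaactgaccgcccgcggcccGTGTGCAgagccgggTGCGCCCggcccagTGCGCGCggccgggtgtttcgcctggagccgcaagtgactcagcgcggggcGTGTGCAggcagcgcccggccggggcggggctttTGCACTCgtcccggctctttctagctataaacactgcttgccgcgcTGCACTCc
MT1X: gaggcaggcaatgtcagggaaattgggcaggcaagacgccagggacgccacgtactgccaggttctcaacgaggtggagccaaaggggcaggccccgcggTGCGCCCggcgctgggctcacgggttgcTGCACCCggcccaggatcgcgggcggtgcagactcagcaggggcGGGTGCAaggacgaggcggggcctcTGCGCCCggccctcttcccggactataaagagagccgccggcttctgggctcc
The window of MT2A holds 7 such cores and that of MT1X 4. At least 4 cores stood in 100 of 27303 promoter windows of this length (0.366%) and at least 1 in 24.7%. Among protein-coding genes called lower with a promoter entry, 8 of 912 (0.877%) held at least 4. The data measure RNA levels in fractions and do not bear on the activity of these elements.

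Actins, tubulins and small actin-binding proteins had 17 lower and 0 higher of 25, with a median of -1.26. TUBA1B had 187 and 145 against 554 and 1056 (log2 fold change -2.28, SE 0.41, adjusted p 0.00735), and ACTG1, gamma actin, 1061 and 1261 against 2337 and 3159.5 (-1.24, SE 0.35, adjusted p 0.0334). ACTB had 1144 and 980.2 against 2157 and 2099 and missed the threshold (-1.0, adjusted p 0.0664). TUBB was called at -1.50 (adjusted p 0.0442), but had -0.79 without cytosolic replicate 2. Large cytoskeletal and motor proteins had 8 higher and 0 lower of 37 and a median of 0.66. MACF1, a giant linker of actin and microtubules, had 442 and 457 against 195 and 149.7 (1.38, SE 0.37, adjusted p 0.0284). DST, a spectraplakin of the same kind, had 318 and 272 against 113 and 92.4 (1.52, SE 0.37, adjusted p 0.0207). Without each library in turn, 5, 5, 7 and 4 of the first list were lower and 0, 0, 3 and 1 of the second higher.

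Core histone genes of the replication-dependent clusters, whose mRNAs end in a stem-loop in place of a poly(A) tail, had 10 lower and 0 higher of 43. HIST1H3B had 145 and 80.3 against 354 and 438 (log2 fold change -1.81, SE 0.36, adjusted p 0.00997). HIST1H2BJ had 96.8 and 41.8 against 222 and 311 (-1.94, SE 0.41, adjusted p 0.0123; -2.67 without native replicate 1). The list median was -0.54 against the cytosol and 1.98 against the nuclear fraction. Against the cytosol it was -1.17 without native replicate 1, -0.20 without native replicate 2, -0.80 without cytosolic replicate 1 and -0.29 without cytosolic replicate 2. Native replicate 1 exceeded replicate 2 by a median of 0.83 over these genes, and without replicate 1 there were 16 lower calls. Without any other single library 1 was lower. Near-identical copies make the counts of single histone genes uncertain. Linker histone H1 genes had no call among 5, with a median of 0.39 against the cytosol and 3.39 against the nuclear fraction.

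DNA replication genes had 10 lower and 0 higher of 50 and a median of -0.36 (-0.05 with total counts). PCNA, the sliding clamp, had 142 and 103 against 237 and 325 (log2 fold change -1.20, SE 0.33, adjusted p 0.0314). Mitosis genes had 6 lower and 2 higher of 49 (12.2% and 4.08%, against 6.77% and 6.99% of all genes). CDK1 had 42.6 and 66.2 against 141 and 162 (-1.48, SE 0.29, adjusted p 0.00978). MKI67, the long mRNA of the protein that coats mitotic chromosomes, had 489 and 837 against 249.6 and 259 (1.38, SE 0.32, adjusted p 0.0168), and ASPM, a spindle pole protein, 103 and 104 against 48.5 and 49.7 (1.07, SE 0.33, adjusted p 0.0444). MKI67 was also above the nuclear fraction, at 293 and 263 there (log2 fold change 1.25, adjusted p 0.0373). Immediate early response genes, which respond fast to stimulation, had no call among 34. Their median of -0.24 was -0.71 without cytosolic replicate 1 and 0.28 without cytosolic replicate 2. Lower calls were 2, 1, 4 and 1 for replication genes in the leave-out fits. For mitosis genes they were 0 except for 2 without native replicate 2, with 1 higher without native replicate 1.

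**Figure D4:**
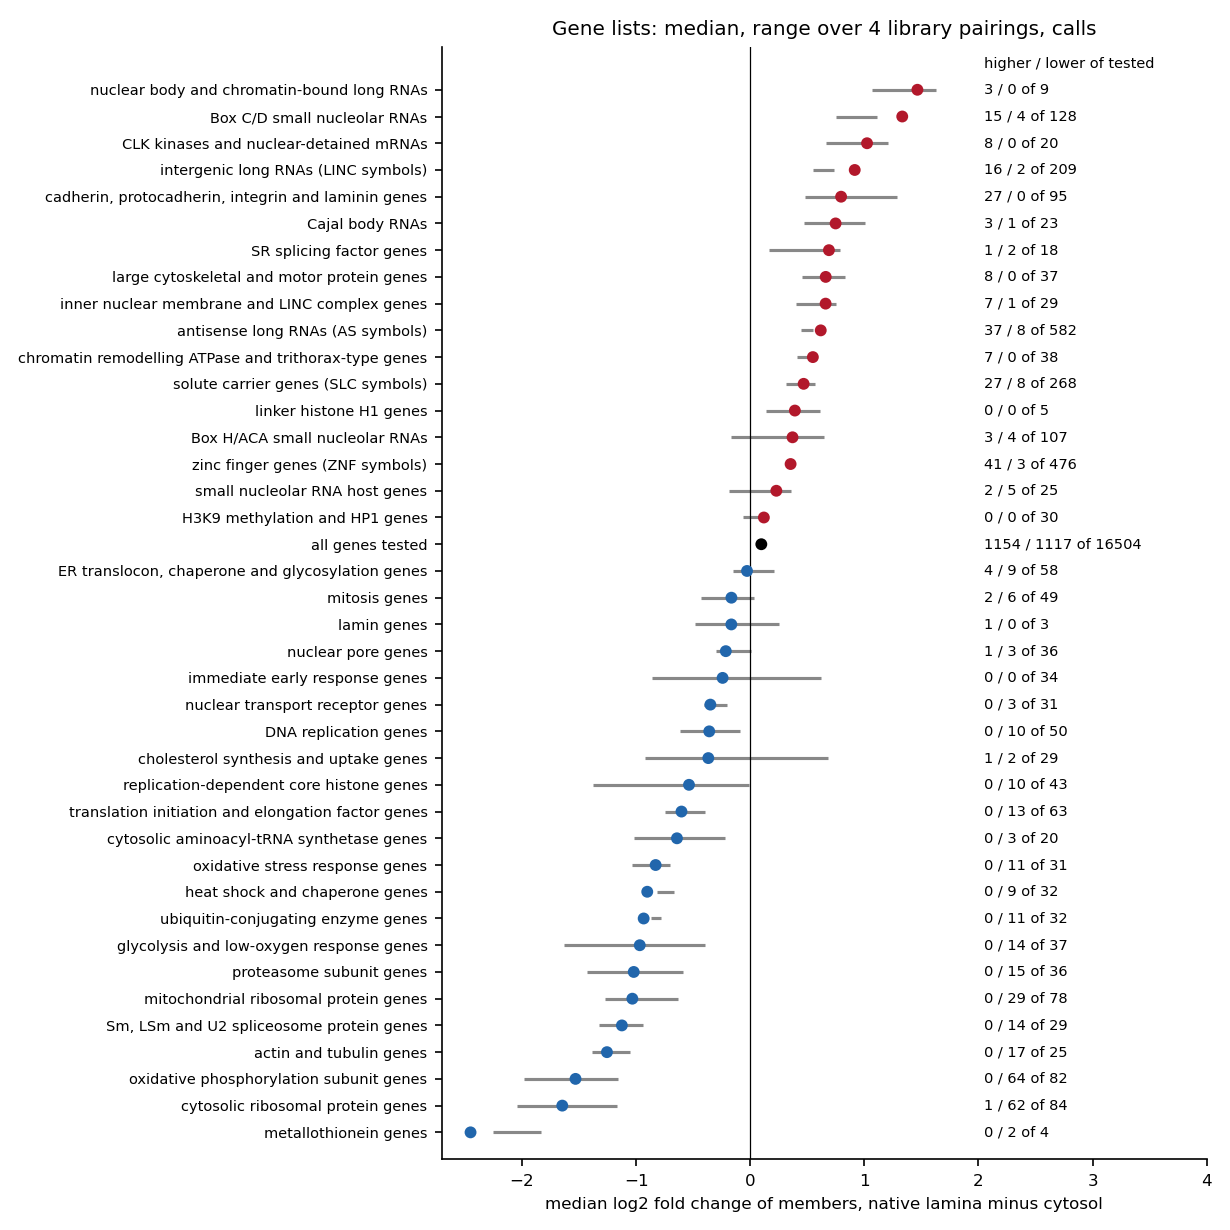
Median log2 fold change (native lamina minus cytosol) of each gene list (points, red above 0 and blue below), with the range of the median over the 4 pairings of a native and a cytosolic library (grey lines, computed on log2 of CPM plus 0.5), and the number of members called higher, lower and tested. Lists of nuclear RNAs and of large membrane, matrix and chromatin proteins lie above the median of all genes (black, 0.10), and lists of subunits of cytosolic and mitochondrial machines below it; for lists with low counts the fitted median can lie outside the pairing range.

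Transcript length was set against the calls directly. Length here is the exonic length in the deposited tables, the merged exon bases of all transcripts of a gene. Among protein-coding genes under 1000 bases, 43.3% of 550 were lower and 0.909% higher, with a median log2 fold change of -1.18. From 1000 to 2000 bases 18.5% of 2273 were lower and 2.60% higher. From 2000 to 4000 bases 6.23% were lower and 4.82% higher of 5439. From 4000 to 8000 bases 1.12% were lower and 9.07% higher of 4540. At 8000 bases and above 0.179% of 1117 were lower and 15.7% higher, with a median of 0.53. The 2 long genes that were lower were GLUL, glutamine synthetase (173 and 195 against 338 and 442), and HBS1L, a factor that rescues stalled ribosomes (100.2 and 108 against 159 and 235). The gene lists above differ in length too. Median exonic lengths were 931.5 bases for cytosolic ribosomal protein genes and 974.5 for oxidative phosphorylation genes. They were 8777 for chromatin remodelling genes and 9325 for large cytoskeletal and motor protein genes. The part of length in the list values was not tested.

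The median of protein-coding genes rose from each class to the next in each fit that left out 1 library. Over genes of all kinds, the medians rose with each class from 1000 bases on in all 4 pairings of libraries. Between 300 to 1000 and 1000 to 2000 bases the order depended on the native library, with medians of -0.28 and -0.29 for replicate 1 against cytosolic replicate 1, and of -0.46 and -0.35 for replicate 2 against it. Genes under 300 bases, which include small nucleolar RNAs and microRNA hairpins, had 33 higher and 10 lower of 376 and a median of 0.89. Over the 4 pairings, computed on log2 of CPM plus 0.5, their median ran only from 0.51 to 0.65. For genes of 300 to 1000 bases native replicate 1 exceeded replicate 2 by a median of 0.20, and for those of 8000 or more it lay below it by 0.08. Scaling moved the level of all classes but not their order, and the medians with total counts were -0.89 under 1000 bases and 0.82 at 8000 bases or more. By number of exon blocks, 78 of 339 genes of 40 or more blocks were higher (23%) and 0 lower, against 4.06% higher and 9.50% lower of the 3104 genes with 2 to 4 blocks. Genes with 1 block had 7.52% higher and 3.53% lower of 1104. The median called gene had 4454.5 exonic bases in 14 blocks on the higher side and 1613 bases in 6 blocks on the lower side. A gene that was not called had a median of 3250 bases in 9 blocks.

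**Figure D5:**
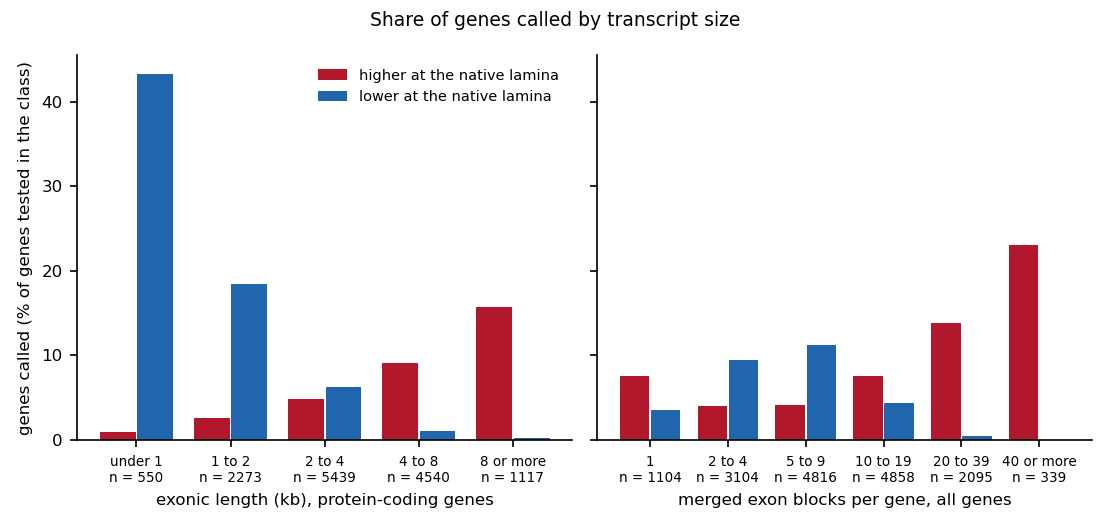
Share of tested genes called higher (red) or lower (blue) at the native lamina, by exonic length of protein-coding genes (left) and by the number of merged exon blocks of all genes (right); n is the number tested. Blue bars fall from 43.3% to 0.179% and red bars rise from 0.909% to 15.7% from the shortest to the longest class.

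The same fit gives the nuclear fraction beside these values, and all 3 comparisons share libraries, so their values are set side by side without a test of overlap. The genes called higher had a median log2 fold change of 1.72 against the cytosol and of -0.24 against the nuclear fraction. Between the nuclear fraction and the cytosol the same genes had 2.01. The genes called lower had -1.46 against the cytosol, 0.12 against the nuclear fraction and -1.65 between the fractions. The mean of the native libraries lay between the means of the fractions for 773 of the 1154 higher and 642 of the 1117 lower genes. The call itself sets the cytosolic side of these counts, so only the nuclear side could vary. The share over all genes was not computed, so the counts do not place the native libraries between the fractions. Against the nuclear fraction itself, 3.87% of all genes were called higher and 3.44% called lower in the native libraries, and between the fractions 26.1% were higher and 21.2% lower in the nuclear one.

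Ribosomal protein genes had a median of 0.01 and oxidative phosphorylation genes of -0.09 against the nuclear fraction. KCNQ1OT1, with 942 and 1194 normalised CPM in the nuclear fraction, lay far above its native values of 138 and 194 (log2 fold change -2.69, adjusted p 0.0700). LINC01004, with 98.0 and 105 there, was lower in the native libraries than there (-2.41, adjusted p 0.0240). MALAT1 had 10962 and 16522 in the nuclear fraction (-0.63, adjusted p 0.538). Box C/D and box H/ACA RNAs had medians of -1.10 and -1.22 against the nuclear fraction, and antisense RNAs -0.57. SEC31B, LAMC1, HSP90B1 and UGGT1 had values of -0.51, 0.10, 0.34 and -0.05 and were not called against it. ACTB was higher in the native libraries than in the nuclear ones, by 1.48 (adjusted p 0.0291), as was LMNB2, by 1.52 (adjusted p 0.0165).

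By RefSeq class, 920 of 14051 protein-coding genes were higher and 1060 lower. These shares, 6.55% and 7.54%, were near the 6.99% and 6.77% of all genes. Long non-coding RNAs had 93 higher and 21 lower of 1222 (7.61% and 1.72%), near the 6.99% of all genes on the higher side. Transcribed pseudogenes had 76 higher and 8 lower of 416 (18.3% and 1.92%). By chromosome, the share of genes higher ran from 3.97% on chromosome 10 (25 of 629) to 10.1% on chromosome 21 (17 of 168). It was 6.99% over all genes, and the chromosome 21 share rests on few genes. On the lower side these 2 chromosomes had 5.72% and 5.36%. Position was also compared with lamina-associated domains, stretches of the genome at the lamina, which the study mapped in HCT116, a colorectal carcinoma line, in 3 cell cycle stages. Of 194 genes lying wholly inside such domains in all 3 stages, 17 were higher (8.76%) and 2 lower (1.03%), with a median of 0.31. Of 15695 genes outside in all 3 stages, 6.98% were higher and 6.91% lower, with a median of 0.09. ROBO1, an axon guidance receptor inside the domains, had 162 and 200.2 against 59.6 and 59.4 (log2 fold change 1.60, adjusted p 0.00711). PTPRD, a receptor phosphatase, had 36.1 and 33.3 against 8.42 and 10.6 (1.88, adjusted p 0.00659). Inside genes were also longer, with a median of 4348 exonic bases against 3113 outside, and the part of length in this difference was not tested. These domains come from another cell line than the RNA, and single genes were chosen after their values were seen.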

How the data were processed

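The authors deposited whole-number read counts per gene symbol. Per the file headers, featureCounts 1.5.2 made them on hg19 with RefFlat gene models, ignoring strand and giving a read that overlaps several genes to all of them. The submitters' processing notes also name TopHat2 2.1.1, Bowtie2 2.3.2, edgeR 3.24.3 and bedtools 2.26.0, without roles. In the header of cytosolic replicate 1 the output carries the name of nuclear replicate 1, but the input is a cytosolic file. Its log2 CPM correlated across genes at 0.968 with the other cytosolic library and at 0.790 with the first nuclear one, and its label was kept. Exonic lengths and domain intervals are as the authors deposited them.

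From the counts, filterByExpr by group left 16504 genes. TMM factors were computed and edgeR 4.0.16 (R 4.3.3) fitted 1 coefficient per group over 8 libraries, with 4 residual degrees of freedom. The spread of the fixed pair thus enters the p-values. Its log2 CPM correlated across genes at 0.911, against 0.966 for the native and 0.968 for the cytosolic pair. The script was tested on simulated data, with a known change in 100 genes at each of 2 sizes. It called 16 of 100 at a log2 fold change of 1 and 84 of 100 at 2, with 3 false calls. A gene or list without calls may therefore still differ by 2-fold. Total counts of the 4 libraries compared ran from 5802728 to 8557777. The floor of 3 counts is 0.351 to 0.517 CPM and covers counting error only, since reads carry no molecular identifiers. RefSeq symbols matched 26618 of 27630 genes, and 366 genes lie on several chromosomes.

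By rule, the text names called genes with 300 or more exonic bases, a single chromosome and 50 or more counts per library in the group where they are higher: the 12 largest changes and the 10 most abundant in each direction. It also names the 3 most abundant calls in each direction of 43 lists, lamin and metallothionein genes, and 7 housekeeping or nuclear RNAs. All further genes in the text were picked once their values had been seen. Some genes the rule picked are not reported here. Members and lists were chosen with earlier results of these data known, and no list was tested. Alternatives were other scalings, filters and library sets, DESeq2 1.42.0, a replicate block, a 1.5-fold minimum change, and omission of single libraries.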

Additional observations from a re-analysis of the deposited data

How the results depend on the processing

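With all choices as reported, 1154 genes were higher and 1117 lower. Without the fixed lamina libraries the counts were 2156 and 2097, and with the 4 compared libraries alone 1832 and 1758. With no filter on low counts 1851 were higher, and against a 1.5-fold minimum change 331 were higher and 322 lower. Scaling by total counts left 581 lower. Fits without 1 of the 4 libraries gave 49 to 536 higher and 84 to 616 lower. DESeq2's Wald test gave 1377 and 1409. Every gene called as reported kept its direction in each alternative that tested it. The alternatives reuse the counts that gave the calls, and the smallest called absolute log2 fold change was 0.86. A kept direction therefore says little. LMNA, not called, went from -0.17 to 0.11 with total counts, 0.05 without cytosolic replicate 1 and 0.03 without native replicate 1, and over the fits without 1 library it ran from -0.40 to 0.049. The cause of these changes was not tested, apart from the fewer libraries or genes in the fits named so. A replicate block gave 1514 higher and 1496 lower. The labels do not say that replicate numbers mark a shared batch. Deviations of same-numbered libraries correlated at 0.095 between native and cytosolic, 0.28 between nuclear and cytosolic, 0.32 between fixed and native, 0.158 between nuclear and native, 1.2e-04 between nuclear and fixed and -0.067 between cytosolic and fixed libraries. No block was used in the reported fit because the labels state none, and a shared batch was not tested further. With 2 libraries a group, many calls were lost when 1 library was left out, which leaves a single library in that group. Of the 163 called genes that the naming rule selected, 4 to 7 moved by more than 1.5-fold in those fits. Genes near 3 counts in the cytosol have no upper bound on their fold change.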
